A study of Mus musculus with 10 samples.

Results

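A set of 10 genes of the sarcomere skeleton was followed in heart ventricle RNA of wild-type (WT) mice and mice with a conditional knockout of Trbp (Trbp-cKO). They encode proteins of the Z-disc (Tcap, Csrp3, Actn2, Ldb3 and Nebl), of the M-band (Myom1 and Myom2) and of the thick filament (Mybpc2 and Mybpc3), together with titin (Ttn), which links them. The genes were taken by symbol from the deposited mRNA table, where they held 18 transcript rows, and each was read at the row with the highest total count, which made 10 of 23360 genes. All mice were of C57BL/6 background and 2 weeks old, and each genotype had 2 libraries made from total RNA. Trbp, whose mouse gene symbol is Tarbp2, encodes a protein that binds double-stranded RNA and works with Dicer. The labels give neither the Cre line of the knockout nor the sex of the mice, and do not say whether replicates were separate animals, so that p-values measure only the spread between these libraries.

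Sarcomeres are the contractile units of striated muscle. Actin filaments are anchored and cross-linked at the Z-disc, myosin filaments are held in register at the M-band, and a titin molecule runs from one to the other along the thick filament. Mutations in the human counterparts of several of these genes, among them MYBPC3, TTN, CSRP3 and ACTN2, are known causes of cardiomyopathy.

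All 10 genes passed the filter on low counts, with 235 to 153580 counts in a library, out of 10151148 to 13540449 counts per library over all genes. Levels are given in CPM, counts scaled to a common library size. The targeted transcript Tarbp2 stood at 12.7 and 11.5 CPM in the WT libraries and at 3.87 and 3.89 CPM in the Trbp-cKO libraries (log2 fold change -1.64 ± 0.17 SE, edgeR adjusted p = 0.000653). Its span overlaps that of Map3k12, which had 626 to 819 counts in a library. The tissue label was checked with 10 cardiomyocyte markers, which together held 93719.5 to 111632 CPM in every library. The atrial genes Myl7 and Sln had at most 4 and 1 counts in a library. Together the 5 listed atrial markers held 82.3 to 82.5 CPM in WT and 191 to 607 CPM in Trbp-cKO. Most of that sum was Nppa, at 68.9 and 66.4 CPM in WT and 173 and 577 CPM in Trbp-cKO.

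Of the 10 genes, 8 passed an edgeR adjusted p of 0.05, against 9.37% of the 13625 genes tested. These 10 were chosen with earlier results of these data known, and all but Mybpc2 stood at 279 CPM or more. The share was not taken over genes of like level, and 6 of 10 cardiomyocyte markers passed as well. Tcap, Myom2 and Ttn rose (3 genes, where 5.17% of all tested genes rose), and Csrp3, Mybpc3, Mybpc2, Myom1 and Actn2 fell (5 genes, where 4.2% fell). Ldb3 and Nebl did not pass. Genes of a structure moved in both directions: the Z-disc held 1 gene that rose and 2 that fell, and the M-band 1 of each, whereas both myosin-binding protein C genes fell. The median log2 fold change of the 10 genes was -0.18, beside 0.00 for all tested genes. In 9 of the 10 genes, both libraries of a genotype lay outside the range of the other genotype, as they did in 54.6% of all tested genes.

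Most of these calls needed both WT libraries. With 1 WT library left, the spread between replicates comes from the 2 Trbp-cKO libraries alone. Without WT replicate 1 only Tcap passed among the 10 genes (edgeR adjusted p = 0.0253), and 1.8% of all tested genes did. Without WT replicate 2 Tcap alone passed again (0.023), and 1.93% of all tested genes did. The count of falls was then 0 in edgeR, where 3 and 5 of the genes fell at an unadjusted p under 0.05, and DESeq2 was not run with a library left out. With all libraries DESeq2 called 6 of the 10 genes (5.38% of all genes with an adjusted p), leaving out Ttn (DESeq2 adjusted p = 0.0552) and Mybpc2 (DESeq2 adjusted p = 0.208). In these fits the 8 called genes kept the direction of their change.

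**Figure D1:**
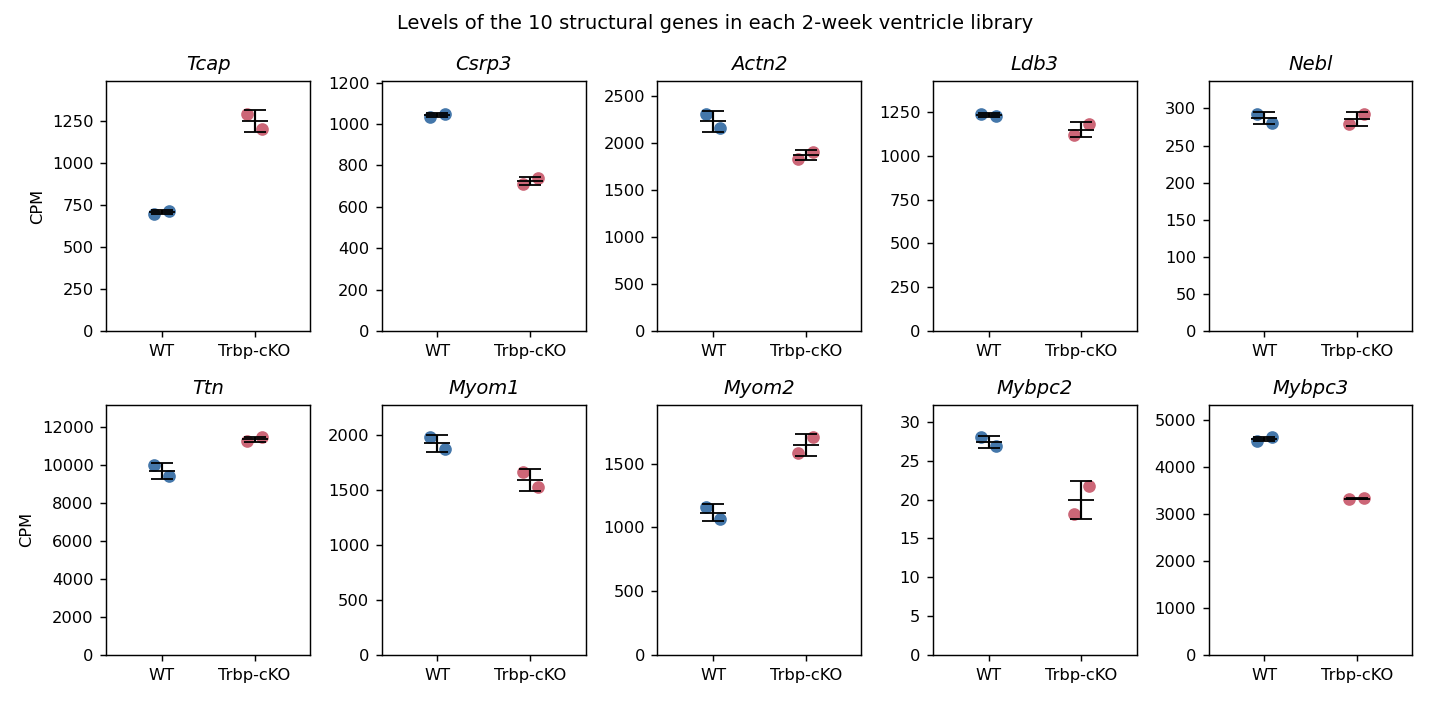
Level of each gene in every library, in CPM on linear axes that start at 0, with WT in blue and Trbp-cKO in red. Points are single libraries, and black bars are the mean ± SD of 2 libraries. The genotypes overlap for Nebl alone among the 10 genes.

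Tcap encodes telethonin, the titin cap, which ties the ends of a pair of titin molecules together at the Z-disc. The gene (NM_011540, chromosome 11, 98383811 to 98384953 in GRCm38) stood at 699 and 716 CPM in the WT libraries and at 1295 and 1203 CPM in the Trbp-cKO libraries. Both Trbp-cKO libraries were far above both WT libraries. The rise was 1.77-fold, with a log2 fold change of 0.82 ± 0.07 (SE; edgeR adjusted p = 0.000202), and Tcap passed in each of the 12 alternative fits, at log2 fold changes of 0.77 to 0.87. In bulk tissue a change in RNA per cell cannot be told apart from a change in the share of cells that express the gene.

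Csrp3 encodes muscle LIM protein, a Z-disc protein that binds alpha-actinin and telethonin and is also found in the nucleus. Its deposited row (NM_013808, chromosome 7, 48830398 to 48848051) held 1035 and 1050.2 CPM in the WT libraries and 709.9 and 738 CPM in the Trbp-cKO libraries. Here the order was the opposite of that of Tcap, since the Trbp-cKO libraries were the lower ones. Csrp3 was 1.44-fold lower in Trbp-cKO, or -0.53 ± 0.07 on the log2 scale (edgeR adjusted p = 0.00156). With WT replicate 1 or 2 left out it missed the threshold (edgeR adjusted p = 0.063 and 0.0568), at log2 fold changes of -0.54 and -0.52. A further Csrp3 row, NM_001198841, carries no symbol in the deposited table and held 36 to 53 counts more per library, with the same log2 fold change of -0.53.

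Actn2 encodes the sarcomeric alpha-actinin that cross-links actin filaments at the Z-disc. Its level (NM_033268, chromosome 13, 12269426 to 12340732) was 2308 and 2151 CPM in the WT libraries and 1832 and 1905 CPM in the Trbp-cKO libraries. The genotypes did not overlap, and the gap between the closest libraries of the genotypes was wider than the difference between the WT libraries. Actn2 fell by 0.25 ± 0.07 on the log2 scale (edgeR adjusted p = 0.0453), and the call ended without WT replicate 1 (0.383) or 2 (0.193).

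Ldb3 encodes Cypher, also called ZASP, a PDZ and LIM protein that binds alpha-actinin, and Nebl encodes nebulette, an actin-binding Z-disc protein of the heart. Ldb3 (NM_011918, chromosome 14, 34526699 to 34590314) held 1239.5 and 1226 CPM in WT and 1117 and 1178 CPM in Trbp-cKO. Its log2 fold change of -0.10 ± 0.07 did not pass (edgeR adjusted p = 0.387). Nebl (NM_028757, chromosome 2, 17342673 to 17734949) was at 293 and 281 CPM in WT and at 279 and 293 CPM in Trbp-cKO. These libraries overlapped, and the log2 fold change was -0.01 ± 0.07 (edgeR adjusted p = 0.973).

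Titin is the giant protein that spans the sarcomere from Z-disc to M-band. Ttn (NM_011652, chromosome 2, 76703980 to 76982557) held 10024 and 9421 CPM in the WT libraries and 11278 and 11478 CPM in the Trbp-cKO libraries. The Trbp-cKO libraries lay close together and above both WT libraries. Ttn rose by 1.17-fold (log2 fold change 0.23 ± 0.06, edgeR adjusted p = 0.0405). This call was lost with total count scaling (edgeR adjusted p = 0.0814) and without WT replicate 1 (0.245) or 2 (0.404), as well as in DESeq2.

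The 2 myomesin genes of the M-band moved in opposite directions. Myom1 encodes myomesin, which bridges neighbouring thick filaments, and held 1976 and 1866 CPM in WT and 1662 and 1522 CPM in Trbp-cKO (NM_010867, chromosome 17, 71003332 to 71126856). Myom2 encodes M-protein, a related bridging protein, and held 1163 and 1068 CPM in WT and 1582 and 1706 CPM in Trbp-cKO (NM_008664, chromosome 8, 15057653 to 15133420). Neither gene had overlapping genotypes, and Trbp-cKO was the lower genotype for Myom1 and the higher one for Myom2. Myom1 fell by 0.27 ± 0.07 on the log2 scale (edgeR adjusted p = 0.0446), and Myom2 rose 1.47-fold, at 0.56 ± 0.07 (edgeR adjusted p = 0.00204). Without WT replicate 1 or 2 the adjusted p was 0.353 or 0.208 for Myom1 and 0.055 or 0.0823 for Myom2. Another gene of the family, Myom3, stood at 2.26 and 2.62 CPM in WT and at 4.8 and 4.48 CPM in Trbp-cKO. That rise of 0.93 ± 0.24 on the log2 scale (edgeR adjusted p = 0.0381) rested on few reads and was lost in DESeq2 (adjusted p = 0.365) and whichever of the 4 libraries was left out (edgeR, 0.0831 to 0.231).

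Myosin-binding protein C sits on the thick filament on either side of the M-band and tunes the binding of myosin to actin. Mybpc3, the cardiac gene (NM_008653, chromosome 2, 91118114 to 91136516), held 4565 and 4633 CPM in the WT libraries and 3329.7 and 3332 CPM in the Trbp-cKO libraries. Replicates of each genotype were nearly equal, and the gap between genotypes was many times their spread. The log2 fold change was -0.47 ± 0.06 (edgeR adjusted p = 0.00173), with an adjusted p of 0.0783 or 0.0718 without WT replicate 1 or 2. Mybpc2, the gene of the fast skeletal muscle form (NM_146189, chromosome 7, 44501699 to 44524715), was at 28 and 26.9 CPM in WT and at 18.2 and 21.7 CPM in Trbp-cKO. It had the lowest counts of the 10 genes, 235 to 372 per library, and the widest error, and its change was -0.46 ± 0.11 on the log2 scale (edgeR adjusted p = 0.0313). Its call also ended when WT replicate 1 (0.224), WT replicate 2 (0.181) or Trbp-cKO replicate 1 (0.13) was left out. The span of Mybpc2 overlaps that of Fam71e1, which had 7 to 13 counts in a library.

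**Figure D2:**
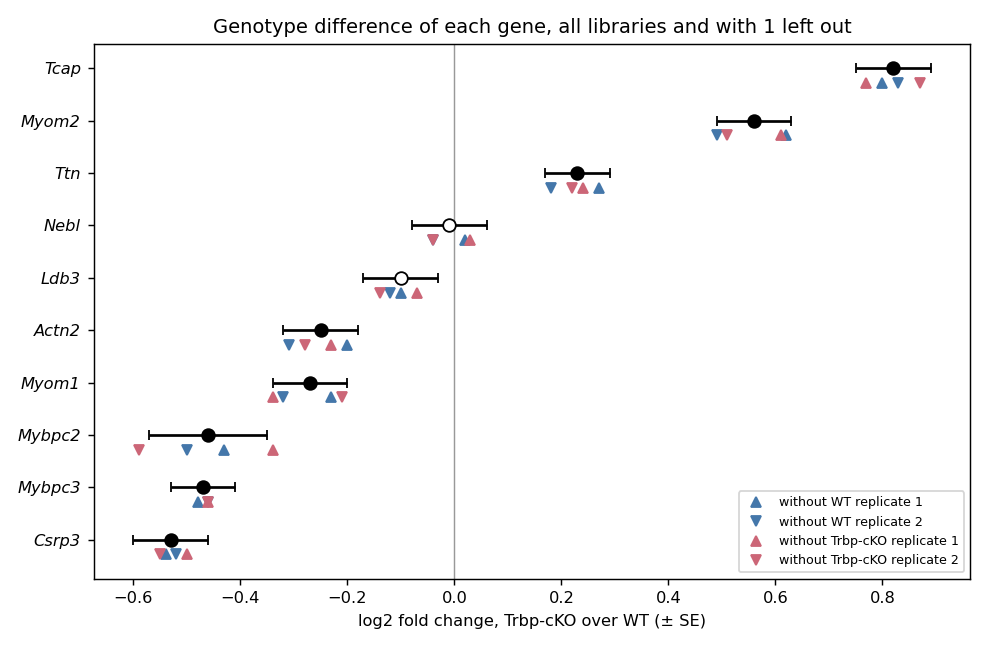
Log2 fold change of each gene, Trbp-cKO over WT, from the edgeR fit of all 4 libraries (circles, with the SE as a bar; filled where the adjusted p passed 0.05, open where it did not) and from fits with 1 library left out (triangles below). All 4 triangles of the 8 called genes lie on the same side of 0 as the circle, and those of Nebl lie on both sides.

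Promoter sequence from RefSeq (GRCm38.p6) was found for 8 of the 10 genes, and not for Tcap and Myom2. Shown are the 250 bases before a start site, 5′ to 3′, of Csrp3 and Mybpc3, which fell most among those 8, and of Ttn, the single riser among them. Csrp3 was named by rule, and Mybpc3 and Ttn were chosen after their values were seen. Capitals mark matches on either strand to the E-box CANNTG, the M-CAT motif CATTCC, the GATA motifs AGATAA and TGATAA, the SOX motifs ACAATG and ACAAAG, the CArG box bound by SRF and the MEF2 motif.
Csrp3, chr7:48848052-48848301, minus strand: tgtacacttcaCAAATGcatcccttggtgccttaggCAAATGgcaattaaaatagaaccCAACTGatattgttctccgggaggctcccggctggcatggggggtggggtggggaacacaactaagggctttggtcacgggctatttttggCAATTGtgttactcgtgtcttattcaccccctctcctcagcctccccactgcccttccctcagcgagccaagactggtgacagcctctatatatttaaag
Mybpc3, chr2:91117894-91118143, plus strand: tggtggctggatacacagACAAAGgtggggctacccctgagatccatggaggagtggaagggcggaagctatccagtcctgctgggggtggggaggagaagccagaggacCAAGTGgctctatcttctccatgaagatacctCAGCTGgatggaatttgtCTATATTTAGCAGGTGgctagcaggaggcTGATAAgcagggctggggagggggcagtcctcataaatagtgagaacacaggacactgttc
Ttn, chr2:76982548-76982797, minus strand: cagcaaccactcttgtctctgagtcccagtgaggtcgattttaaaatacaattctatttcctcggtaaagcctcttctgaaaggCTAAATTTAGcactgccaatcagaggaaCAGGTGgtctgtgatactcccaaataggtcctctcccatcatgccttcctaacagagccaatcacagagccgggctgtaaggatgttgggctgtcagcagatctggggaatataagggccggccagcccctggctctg

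The Csrp3 window shown held 4 E-box matches and no match to the other motifs, and the window of a second Csrp3 start site, not shown, held 4 E-box and 2 SOX matches. The Mybpc3 window held a MEF2 match that starts 90 bases before the start site, directly followed by an E-box at 80 bases, with 2 further E-boxes, 1 GATA match and 1 SOX match. The Ttn window held a MEF2 match at 166 bases and an E-box at 138 bases before the start site. Among the other genes, the windows of Myom1, of both Ldb3 start sites (the same match) and of 1 of 4 Nebl start sites held a CArG box. Over all 32851 promoter windows of the same length, 66.2% held an E-box, 12.6% an M-CAT motif, 16.6% a GATA motif, 25.2% a SOX motif, 1.47% a CArG box and 2.92% a MEF2 motif. The E-box and MEF2 matches in these windows did not overlap each other. A match describes letters only and is no measure of binding.

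Ratios between genes within a library do not depend on how libraries were scaled. They are ratios of counts without correction for transcript length, so that only their change between genotypes is read. That change restates the fold changes of the 2 genes given above and is no separate support. The pairs were chosen with earlier results of these data known. For each ratio the exact two-sided permutation test of 2 against 2 libraries cannot go below p = 0.333, and the 7 ratios without overlap were at that value. The ratio of Tcap to Csrp3 was 0.675 and 0.682 in the WT libraries and 1.82 and 1.63 in the Trbp-cKO libraries, 2.54-fold higher. Myom2 to Myom1 went from 0.588 and 0.572 in WT to 0.952 and 1.12 in Trbp-cKO, 1.78-fold higher. In both cases the WT libraries nearly coincided, and the Trbp-cKO libraries lay apart from them by more than their own spread.

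Set against titin, Tcap was higher and the other 3 genes tried were lower in Trbp-cKO. Ttn itself rose by 0.23 on the log2 scale, which is part of each of these ratios. Tcap to Ttn was 6.97% and 7.6% in WT and 11.5% and 10.5% in Trbp-cKO. Actn2 to Ttn was 23% and 22.8% in WT and 16.2% and 16.6% in Trbp-cKO. The Mybpc3 to Ttn ratio was 45.5% and 49.2% in WT and 29.5% and 29% in Trbp-cKO, and that of Myom1 to Ttn was 19.7% and 19.8% in WT and 14.7% and 13.3% in Trbp-cKO. Each of these 4 ratios differed between genotypes by more than the spread of either. By contrast the Mybpc2 to Mybpc3 ratio overlapped, at 0.614% and 0.582% in WT and 0.547% and 0.653% in Trbp-cKO (exact permutation p = 1), and ran from -0.13 to 0.13 on the log2 scale, Trbp-cKO minus WT, with 1 library left out. At 2 against 2 libraries this does not show that both genes changed alike. How reads that match both genes were counted is not given in the sources used here. Nebl to Ldb3 rose by 0.10 on the log2 scale, from 23.7% and 23% to 25% and 24.9%.

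**Figure D3:**
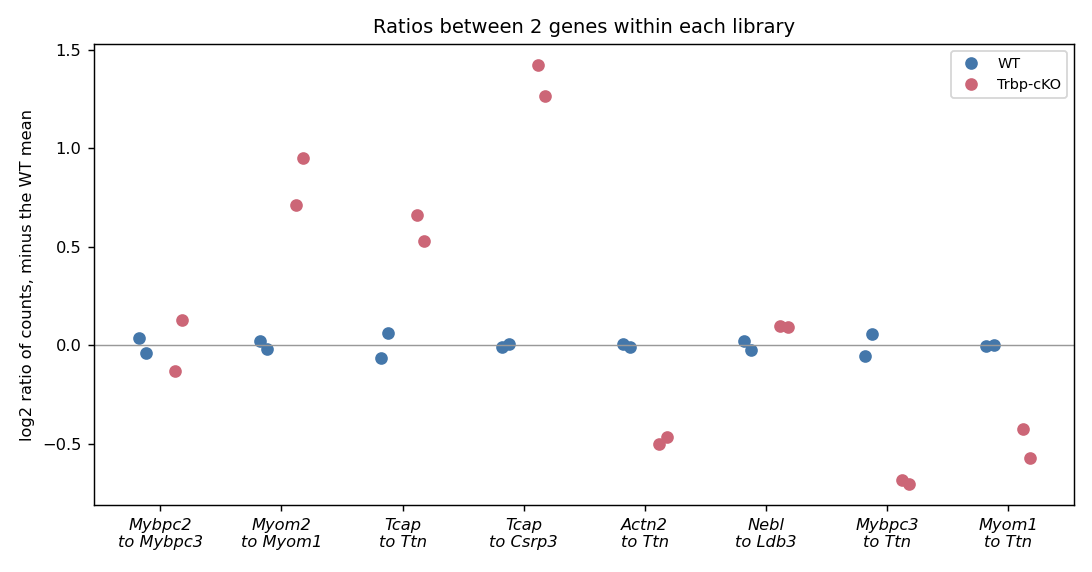
Log2 ratio of the counts of 2 genes within each library, with the mean of the WT libraries set to 0 (WT in blue, Trbp-cKO in red; 1 point per library). Tcap to Csrp3 and Myom2 to Myom1 lie above WT in both Trbp-cKO libraries, Mybpc3 to Ttn below, and Mybpc2 to Mybpc3 on both sides of 0.

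Transcript rows of one gene share most of their reads and are not independent. The 2 Ttn rows differed by 93 and 155 counts in the WT libraries and by 255 and 267 counts in the Trbp-cKO libraries, where the gene row held 97201 to 153580 counts, and both had a log2 fold change of 0.22 in a fit of all transcript rows. The 2 Myom1 rows differed by 157 to 248 counts and were both at -0.28. Ldb3, with 7 rows, was the gene whose rows stood apart. Its rows NM_001039072, NM_001039073 and NM_001039074 were each at -0.14 ± 0.06 (SE) and its rows NM_001039075 and NM_001039076 at 0.03 and 0.05, and none of the 7 passed (edgeR adjusted p from 0.185 to 0.802).

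Relative to the highest row, NM_011918, the count of NM_001039076 was 56.7% and 56.9% in the WT libraries and 63.2% and 63.4% in the Trbp-cKO libraries. NM_001039075 was at 43% and 43.4% in WT and at 48% and 47.6% in Trbp-cKO. For NM_001039074 the order was reversed, at 86.3% and 86.5% in WT and 84.8% and 84.2% in Trbp-cKO. In each of these rows the replicates lay closer to each other than to the other genotype, without overlap. The row with counts closest to NM_011918 did overlap, at 97.9% and 97.4% in WT and 97.7% and 98.1% in Trbp-cKO. Groups without overlap are common with 2 against 2 libraries, as in the levels of 54.6% of all tested genes. These shares were looked at after the values were seen and were not tested, and the files do not say which exons set the rows apart.

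**Figure D4:**
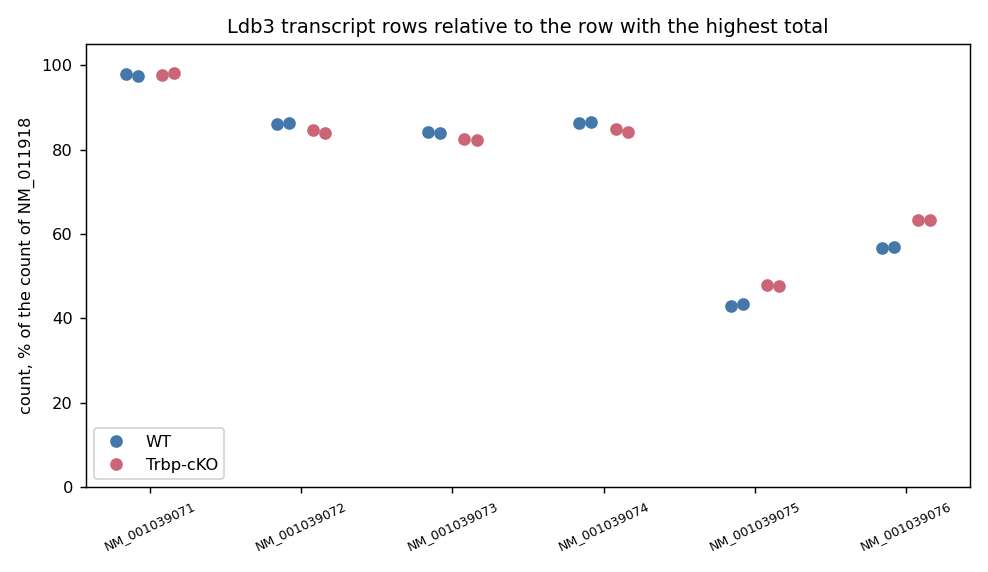
Count of 6 Ldb3 transcript rows as a percent of the count of the row with the highest total, NM_011918, in each library (WT in blue, Trbp-cKO in red; the axis starts at 0). The rows NM_001039075 and NM_001039076 are higher in both Trbp-cKO libraries, at 47.6% to 63.4% against 43% to 56.9% in WT. The 3 rows near 85% are slightly lower, and the remaining row, at 97.4% to 98.1%, overlaps between genotypes.

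Close relatives of the 10 genes were looked at as a list. In edgeR 5.17% of all tested genes rose and 4.2% fell, the shares to set beside this list and those below. No list was tested as a set. Some genes, such as Myom3, Pdlim5 and Myh6, stand in more than 1 list, so that the counts of the lists are not separate results. Of 16 listed paralogs 13 were tested, 2 rose, 1 fell and 10 did not pass, with a median log2 fold change of -0.17. Csrp2, a LIM protein gene best known from smooth muscle, rose while Csrp3 fell, from 52.3 and 54.1 CPM in WT to 82.4 and 89.9 CPM in Trbp-cKO (log2 fold change 0.70 ± 0.08, edgeR adjusted p = 0.000753). Csrp1, at -0.20 ± 0.08, did not pass (edgeR adjusted p = 0.191). Pdlim5, a PDZ and LIM gene related to Ldb3, fell by 0.27 ± 0.07 (edgeR adjusted p = 0.04). That call ended without WT replicate 1 (0.326) or 2 (0.205), without Trbp-cKO replicate 1 (0.0643) and with the mean over transcript rows (0.0594). Pdlim3 (0.72 ± 0.25) and Pdlim7 (-0.20 ± 0.10) did not pass in edgeR, and Pdlim3 passed in DESeq2 (adjusted p = 0.00525).

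The non-muscle alpha-actinin genes Actn1 (-0.21 ± 0.08, edgeR adjusted p = 0.12) and Actn4 (-0.02 ± 0.08) did not pass, and Actn3, the fast skeletal form, had 0 to 1 counts in a library. Nebulin-family genes Nrap (-0.07 ± 0.07), Lasp1 (-0.17 ± 0.07) and Neb (-0.25 ± 0.34) did not pass, nor did Mybph (-0.36 ± 0.23). Without WT replicate 1 Neb was at 0.28, and Actn4 was at 0.02 without WT replicate 2. Mybpc1, the slow skeletal form of myosin-binding protein C, and Mybphl had 0 to 4 counts in a library and were not tested.

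Over all tested genes 5.17% rose and 4.2% fell. Among 25 tested partners of the Z-disc, 2 rose, 5 fell and 18 did not pass, with a median log2 fold change of -0.05. Cavin4, a muscle caveola protein found near the Z-disc, fell from 158 and 151 CPM in WT to 74.5 and 73.2 CPM in Trbp-cKO (log2 fold change -1.07 ± 0.07, edgeR adjusted p = 2.78e-05). Pdlim1, an alpha-actinin-binding PDZ and LIM gene, fell by 0.78 ± 0.10 on the log2 scale, with an edgeR adjusted p of 0.00249 (0.0598 without WT replicate 1). Ankrd23, a titin-associated ankyrin repeat gene, fell by 0.42 ± 0.07, with an edgeR adjusted p of 0.00578 (0.0729 and 0.117 without WT replicate 1 or 2). Csrp2, given above, was the riser with the smallest p.

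Beside 5.17% risen and 4.2% fallen among all tested genes, 2 of 17 tested partners of the M-band rose and 6 fell. The other 9 did not pass, and the median log2 fold change was 0.00. DESeq2 called 1 higher and 4 lower. Myom3, given above, was 1 of the 2 genes that rose in edgeR. Trim55, which encodes the titin-binding ubiquitin ligase MuRF2, fell from 169 and 193 CPM in WT to 89.5 and 106 CPM in Trbp-cKO (log2 fold change -0.89 ± 0.10, edgeR adjusted p = 0.00258). Its relative Trim54, the MuRF3 gene, fell by 0.47 ± 0.07 on the log2 scale (edgeR adjusted p = 0.00391). Unc45b, a chaperone of myosin folding, rose by 0.46 ± 0.07 (edgeR adjusted p = 0.00337), and the LIM-domain gene Fhl1 fell by 0.44 ± 0.06 (0.00294). The calls of Trim54, Unc45b and Fhl1 ended without WT replicate 1 or 2, at edgeR adjusted p from 0.0533 to 0.0931, and that of Trim55 held in every fit.

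The filament lists are also set beside 5.17% risen and 4.2% fallen among all tested genes. Of 9 tested thick-filament genes outside the 10, 2 rose and 4 fell, with a median log2 fold change of -0.31. The falls included the myosin genes Myh7b (-6.89), Myl3 (-1.74) and Myl2 (-0.31), and Myh6, the main myosin heavy chain gene of the adult mouse heart, rose by 0.39. Of 14 tested thin-filament genes, 5 rose and 1 fell in edgeR, with a median of 0.16. At an unadjusted edgeR p under 0.05, 6 were higher and 3 lower, and DESeq2 called 5 higher and 2 lower. The fall called in edgeR was that of the troponin C gene Tnnc1 (-3.70). The edgeR rises included the tropomyosin genes Tpm3 (0.60 ± 0.10) and Tpm2 (0.71 ± 0.13) and the cardiac troponin T gene Tnnt2 (0.39 ± 0.08). Calls of Myh6, Myl2, Tpm2, Tpm3 and Tnnt2 ended when either WT library was left out, at edgeR adjusted p from 0.0556 to 0.255.

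Of 15 regulators of sarcomere transcription and titin splicing, 2 rose in edgeR and 0 fell, beside 5.17% and 4.2% of all tested genes. At an unadjusted p under 0.05 1 was lower, and 1 was called lower by DESeq2. Such small counts are not read as a result about the list. Sox6, a repressor of slow-fibre genes, rose from 39.4 and 40.4 CPM in WT to 113 and 122 CPM in Trbp-cKO (log2 fold change 1.56 ± 0.07, edgeR adjusted p = 5.24e-06). Mef2a, a muscle transcription factor gene, rose by 0.32 ± 0.07 (edgeR adjusted p = 0.0162; 0.201 and 0.152 without WT replicate 1 or 2). Rbm20, the main regulator of titin splicing, was at 0.01 ± 0.07 and did not pass; it was named after its value was seen.

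**Figure D5:**
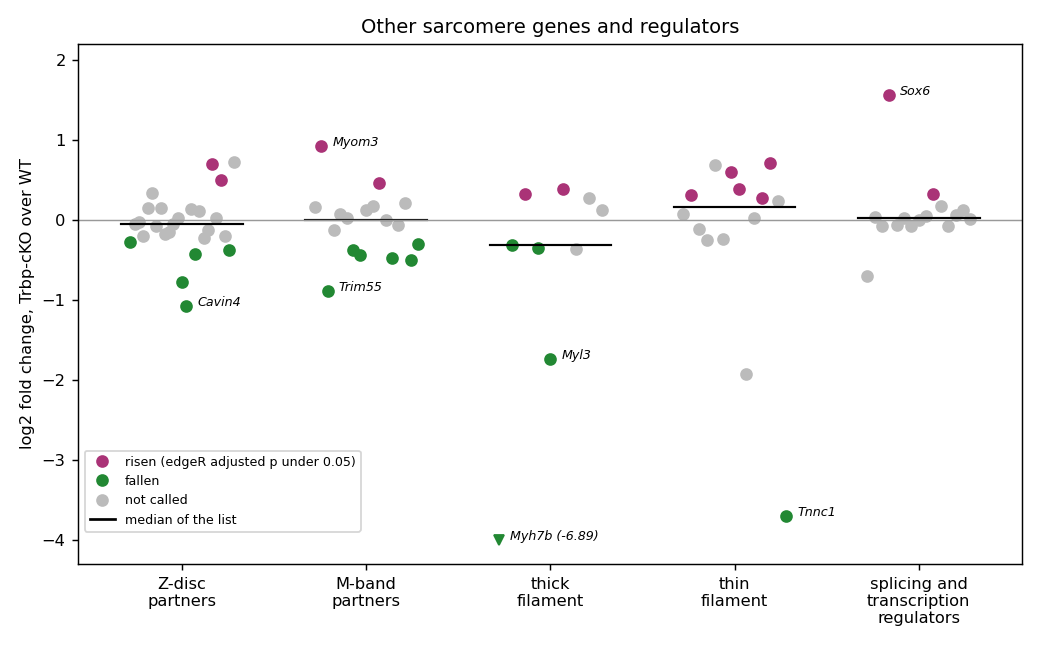
Log2 fold change, Trbp-cKO over WT, of each tested gene in 5 lists of sarcomere genes and regulators (purple risen, green fallen, grey not called at an edgeR adjusted p of 0.05; black lines are list medians, from -0.31 for the thick filament to 0.16 for the thin filament). Myh7b, at -6.89, is drawn at the lower end of the axis as a triangle.

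Markers of cells were set beside these results. Over all tested genes 5.17% rose and 4.2% fell in edgeR. Of 10 cardiomyocyte markers, 5 rose, 1 (Myl2) fell and 4 did not pass, with a median log2 fold change of 0.20. Their summed level was 93719.5 to 94456 CPM in WT and 105932 to 111632 CPM in Trbp-cKO. Most of that difference was Myh6, at 33181 and 33037 CPM in WT and 42540.3 and 44259.7 CPM in Trbp-cKO. Skeletal muscle markers summed to 28.9 to 33 CPM in WT and 101 to 121 CPM in Trbp-cKO, and most of the difference was Tnni2, at 5.13 and 2.42 CPM in WT and 86.5 and 50.7 CPM in Trbp-cKO. Of those 14 markers 4 were tested and 0 called in edgeR (2 at an unadjusted p under 0.05, 2 by DESeq2), and the fast myosin genes Myh1, Myh2 and Myh4 had 0 to 9 counts in a library. The summed atrial markers were 82.3 to 82.5 CPM in WT and 191 to 607 CPM in Trbp-cKO, of which 0 of 3 tested passed in edgeR (1 at an unadjusted p under 0.05, 1 by DESeq2). Most of that sum was Nppa, which stood at 173 CPM in Trbp-cKO replicate 1 and at 577 CPM in replicate 2.

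Fibroblast markers summed to 2655 to 2721 CPM in WT and 2584 to 2828 CPM in Trbp-cKO, with 1 risen and 3 fallen of 8. For this and the next lists the shares of all tested genes were 5.17% risen and 4.2% fallen in edgeR. Endothelial markers were at 2096 to 2126 CPM and 2172 to 2205 CPM, with 1 of 8 risen in edgeR and 0 in DESeq2. Smooth muscle and pericyte markers were at 2329 to 2646 CPM in WT and 2121 to 2884 CPM in Trbp-cKO, and macrophage and leukocyte markers at 207 to 239 CPM and 226 to 236 CPM, with 0 of 8 called in each list by edgeR or DESeq2 (2 in each at an unadjusted edgeR p under 0.05). Erythroid markers were lower, at 1125 to 1392 CPM in WT and 905 to 1054 CPM in Trbp-cKO, with 4 of 6 tested fallen in edgeR and 2 in DESeq2. The near-identical Hba-a1 and Hba-a2 had the same counts in every library. This sum and the edgeR count of falls thus hold them as 2 genes with no independent reads. Equal counts also give both the same result in DESeq2, so that the 2 falls there may be this pair. No listed marker was at 0 in all 4 libraries. The part of these cells in the changes of the 10 genes was not tested.

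The authors' deposited table gives its own ratio of Trbp-cKO over WT and q-value for each transcript. Its 30635 rows were taken without a filter on counts and with several rows for some genes. That set is unlike the 10 genes at 1 row each. In the authors' deposited table, a q-value under 0.05 is given for 4 of the 10 genes, against 4.01% of all rows. Those entries of the authors' deposited table are Tcap (ratio 1.76, q = 1.86e-06), Myom2 (1.47, q = 0.00522), Csrp3 (0.692, q = 0.00871) and Mybpc3 (0.721, q = 0.0306). At a q-value under 0.01, the limit kept in the authors' deposited list of changed transcripts, 3 of the 10 genes remain and Mybpc3 does not. For the other 6 genes the q-value in the authors' deposited table was 0.107 for Mybpc2 and 0.492 to 1 for Myom1, Actn2, Ttn, Ldb3 and Nebl. The genes called in edgeR but above a q-value of 0.05 in that table include the 3 with the smallest called changes, Actn2, Myom1 and Ttn.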

How the data were processed

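Ventricle mRNA was compared between 2 WT and 2 Trbp-cKO libraries. Per the labels' protocols, Trizol was used for RNA extraction and a TruSeq RNA kit for the libraries. Per the submitters' processing notes, reads were processed on build mm10 with Bowtie 0.12.9, cutadapt 0.9.5, CASAVA 1.8.2, edgeR and SAMtools 0.1.16, whose roles are not stated. How reads were counted, by strand or with several matches, is not given in the sources used here. The authors deposited raw counts for each RefSeq transcript, with a ratio, p-value and q-value per transcript, which entered no test here.

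Of 30635 rows, 30020 were matched by accession to RefSeq genes of GRCm38.p6, which gave symbols and positions. The 110 rows without a name held 0.117% to 0.14% of a library and were left out. The row with the highest total was kept per gene; the 10 genes were read at rows that carry their symbol. Counts were tested in R 4.3.3 with edgeR 4.0.16 (filterByExpr, TMM, robust glmQLFit, glmQLFTest, Benjamini-Hochberg over all tested genes), after a test on simulated data. CPM use TMM-scaled library sizes, and the SE is the log2 fold change divided by the square root of F. DESeq2 1.42.0 and other scalings, filters and row choices were alternatives. The 10 genes, the lists and the tests were chosen with earlier results of these data known. Named are the 10 genes, tested paralogs (except 1 that is not reported here), up to 4 passing genes with the smallest p per partner list, and Tarbp2; Rbm20, Tnni2, Nppa and genes named only for low counts were added after their values were seen. The small RNA files, from another age, were not used here.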

Additional observations from a re-analysis of the deposited data

How the results depend on the processing

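With DESeq2, 437 genes rose and 310 fell, beside 705 and 572 in edgeR. Total count scaling gave 541 and 726, and shifted the median of all genes by -0.042 (log2). Leaving out 1 library in turn gave 126 to 654 risen and 125 to 467 fallen genes, and 1 to 3 risen and 0 to 5 fallen among the 10. Adding the replicate block, since titles give both genotypes the numbers 1 and 2, left 549 and 439 genes called and 2 risen (Tcap, Myom2) and 2 fallen (Csrp3, Mybpc3) of the 10. With that replicate block the edgeR adjusted p was 0.108 for Actn2, 0.151 for Ttn, 0.0722 for Myom1 and 0.0596 for Mybpc2, and 0.0842 for Pdlim5, 0.0695 for Myom3, 0.0681 for Tnnt2 and 0.0546 for Myl2. Same-numbered libraries deviated together with a correlation of 0.168 across genes, and nothing in the labels says that a number marks a shared litter or day.

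Signs changed only among results that had not passed, and each time with 1 library left out. Over those fits the log2 fold change ran from -0.04 to 0.03 for Nebl, from -0.13 to 0.08 for Actn4, from -0.61 to 0.28 for Neb and from -0.15 to 0.00 for Nrap. The log2 difference of the Mybpc2 to Mybpc3 ratio ran from -0.13 to 0.13. The cause was not tested. A fit that leaves 1 library in a genotype assumes that it varies like the other genotype. With 2 libraries per genotype, an SE of about 0.07 limits what can be called: the log2 fold change of -0.10 of Ldb3 missed the threshold.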
